A study of Drosophila melanogaster with 12 samples.

Results

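The yolk protein genes Yp1, Yp2 and Yp3, the female-biased gene fit and the storage protein gene Lsp2 were followed in fly heads on 12 Affymetrix arrays of total RNA. The genes were taken from a list of 6 genes of the fat body, of which 5 had a probe set in both deposited tables. The remaining gene was not analysed here. Each of the 5 genes had 1 probe set in each table, among 11981 named genes on the design with 8 arrays and 10843 on the design with 4 arrays. All 10 probe sets passed the filter on dim signals.

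All flies expressed CLKGR, in which CLOCK (CLK), an activator at the core of the circadian clock, is joined to a hormone-responsive piece of the glucocorticoid receptor. The glucocorticoid dexamethasone (DEX) activates such a fusion, and both arms received cycloheximide (CHX), which blocks protein synthesis, so that the arms differed in DEX against its vehicle. The 8-array table held 1 vehicle and 2 DEX arrays at ZT 4 (Zeitgeber time, counted in hours from lights on), 2 vehicle and 2 DEX arrays at ZT 16, and 1 vehicle array without a labelled time. The 4-array table held 2 vehicle arrays and 2 arrays labelled DEX, none with a labelled time. The label of 1 of these vehicle arrays gives no replicate number, and that array is called vehicle replicate 3 here. The labels give neither the sex, age, strain or feeding of the flies nor the driver of CLKGR, and no label states whether the flies of each replicate were separate, so that p-values here reflect array-to-array spread alone, possibly of technical origin.

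The fat body is the fly's counterpart of liver and adipose tissue, and a part of it lies in the head around the brain. In adult females it secretes the yolk proteins, which are taken up by growing oocytes and which males do not normally make. The yolk genes are switched by the sex determination gene doublesex and also respond to feeding and hormones. The yolk genes and fit therefore serve in this field as markers of the female share of a pool of heads, although they also report the state of the females in it. In pooled heads, fewer female heads, fewer fat body cells and less of a transcript per cell cannot be told apart.

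Levels are natural logs of the deposited intensity values, read as log2 expression levels because they spanned 1.84 to 15.5 and 0.97 to 15.01, and folds rest on that reading. The levels of different probe sets are not compared with each other, and the tables were tested separately. The mean levels of 11 eggshell and ovary genes, marking body tissue in which yolk genes are also active, ran from 2.34 to 3.24 on the 8-array table, where the filter on dim signals lay at 2.779. On the 4-array table they ran from 2.05 to 4.03, with the filter at 2.924. The yolk protein receptor gene yolkless (yl), active in oocytes, read 2.89 to 3.26 and 2.13 to 2.21. Genes of the male accessory gland and testis, 19 and 18 on the designs, had median levels of 2.63 to 2.79 and 2.72 to 2.84 over arrays. Of these male genes 7 and 8 passed the filter, against 4 and 2 of the eggshell and ovary genes. The highest mean levels of the male genes were 4.14 (Acp95EF) and 3.46 (Acp26Aa). Photoreceptor genes, which mark the eyes of the head, had medians of 7.17 to 8.48 and 9.29 to 9.36 (4 genes on each design). Of a list of 30 further fat body genes, 25 were on each design, and 23 and 25 of these passed the filter, among them the lipoprotein gene apolpp with mean levels of 10.55 and 7.46.

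The yolk genes varied between arrays of the same group. Yp1, which encodes a yolk protein and lies beside Yp2 on the X chromosome, read 14.61 on the ZT4 vehicle array, 13.90 and 14.40 on the ZT4 DEX arrays, 14.48 and 13.59 on the ZT16 vehicle arrays, 14.10 and 14.54 on the ZT16 DEX arrays and 14.31 on the vehicle array without a time. The ZT4 vehicle array was highest and vehicle ZT16 replicate 2 lowest, a range of 1.02 on the log2 scale or 2.03-fold. Yp2 read 14.58 on the ZT4 vehicle array, 13.39 and 14.07 with DEX at ZT4, 14.42 and 12.79 with vehicle at ZT16, 13.44 and 14.44 with DEX at ZT16 and 14.00 on the array without a time. Its range was 1.79, or 3.46-fold, between the same 2 arrays. The DEX arrays and the vehicle arrays overlapped at ZT16 for both genes, and both DEX arrays at ZT4 lay below the single vehicle array.

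Yp3, the yolk gene that lies apart from the other two on the X chromosome, read 14.64 on the ZT4 vehicle array, 13.25 and 14.27 with DEX at ZT4, 14.33 and 13.14 with vehicle at ZT16, 13.97 and 14.43 with DEX at ZT16 and 14.17 without a time. The 8 arrays stood in the same order for all 3 yolk genes, with Spearman rho of 1.00 for each pair. The yolk genes are paralogs, and whether probes of one read transcripts of another was not tested. Their probe sets were among the brightest of each array, ranking from 1 to 15 of 18769 in the 8-array table, and whether their signals were saturated is not given in the sources used here.

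The yolk genes of the 4-array table also varied between replicates. Yp1 read 11.84 and 12.78 on vehicle replicates 2 and 3, and 13.31 and 12.12 for replicates 1 and 2 labelled DEX. Yp2 read 11.42 and 12.29 with vehicle and 12.74 and 11.56 with the DEX label, and Yp3 read 11.46 and 12.83 against 12.87 and 11.92. For each of the 3 genes the groups overlapped, and the array labelled DEX replicate 1 was the highest of the 4. The mean of the 3 yolk genes ranged over 1.40 on the log2 scale in this table, or 2.64-fold, and over 1.44, or 2.71-fold, in the 8-array table.

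**Figure D1:**
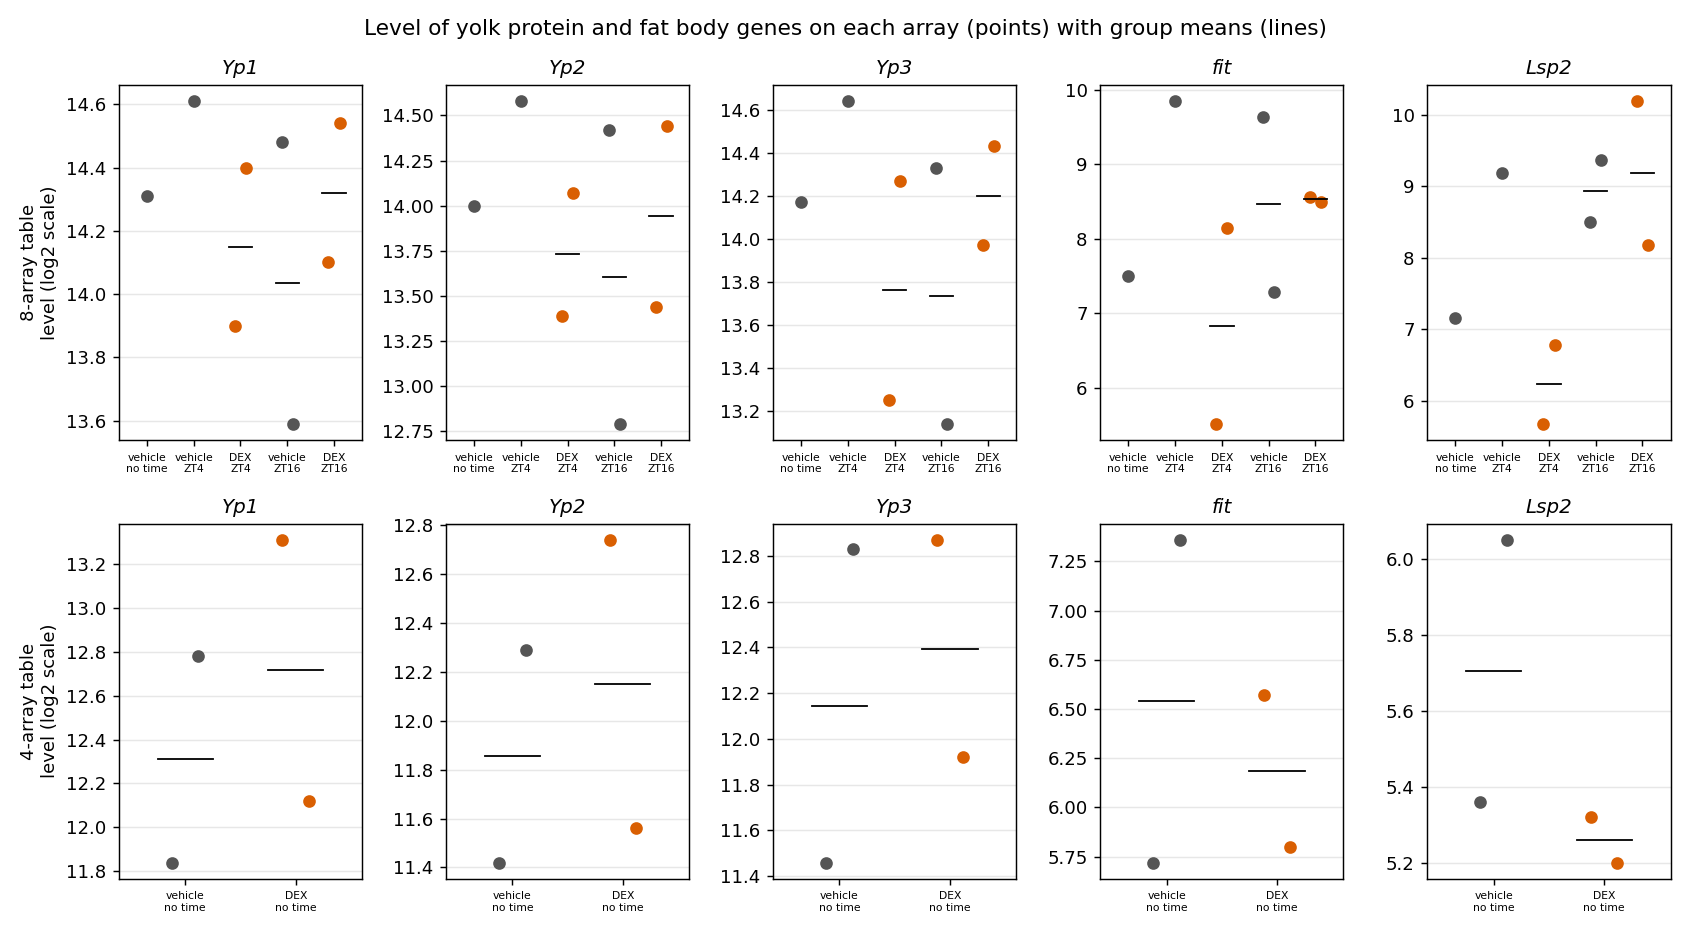
Level on the log2 scale of each gene (columns) in the 8-array table (top) and the 4-array table (bottom), with 1 point for each array, vehicle in grey and DEX in orange, lines at group means and a separate vertical scale in each panel. Replicates of 1 group differ by up to 1.62 for Yp2 and 2.63 for fit, and the yolk genes of vehicle and DEX arrays overlap at ZT16 and in the 4-array table.

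The gene fit (female-specific independent of transformer) encodes a peptide that the fat body secretes after protein feeding. It read 9.85 on the ZT4 vehicle array, 5.52 and 8.15 with DEX at ZT4, 9.64 and 7.29 with vehicle at ZT16, 8.56 and 8.50 with DEX at ZT16 and 7.50 on the array without a time. Its range of 4.33, or 20.1-fold, ran from DEX ZT4 replicate 1 to the ZT4 vehicle array, and the groups overlapped at ZT16. The 4-array values of fit were 5.72 and 7.36 with vehicle and 6.57 and 5.80 with the DEX label, with overlapping groups.

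Lsp2 encodes larval serum protein 2, a hexamerin that stores amino acids and is also made by fat body of the adult head. It read 9.18 on the ZT4 vehicle array, 5.68 and 6.78 with DEX at ZT4, 8.50 and 9.36 with vehicle at ZT16, 10.19 and 8.18 with DEX at ZT16 and 7.16 on the array without a time. Both ZT4 DEX arrays were the lowest of the table, and the array without a time came next. Its range was 4.52, or 22.9-fold. The 4-array values of Lsp2 were 5.36 and 6.05 with vehicle and 5.32 and 5.20 with the DEX label.

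The spread between replicates put these genes near the top of each table. The residual SD within groups of treatment and time was 1.44 for fit, 1.00 for Lsp2, 0.83 for Yp2, 0.67 for Yp3 and 0.45 for Yp1 in the 8-array table (3 residual degrees of freedom), where the median over 11261 kept probe sets was 0.203. Of these probe sets 99.3% had a smaller residual SD than fit and 85.8% a smaller one than Yp1. With 4 arrays (2 residual degrees of freedom) the share was 99.3% for fit, 99% for Yp3, 98.8% for Yp1, 98.6% for Yp2 and 90.4% for Lsp2. Most clock genes that were read as known CLK targets also had a high spread, with tim on the smaller design as an exception. The shares of tim, per, vri and Pdp1 were 94.2%, 87.3%, 86.9% and 91.3% on the larger design and 25.5%, 99%, 99.6% and 82.4% on the smaller.

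In each of the 5 pairs of replicates the 3 yolk genes moved together. Taken as the array with the higher yolk mean minus the other, the mean of the 3 yolk genes differed by 0.73 between the ZT4 DEX arrays, 1.24 between the ZT16 vehicle arrays, 0.63 between the ZT16 DEX arrays, and 1.06 and 1.10 within the vehicle group and the group labelled DEX of the 4-array table. These are folds of 1.55 to 2.36. The direction was that of the mean for Yp1, Yp2 and Yp3 alike in all 5 pairs. The gene fit had the same direction in 4 of the 5 pairs, by 2.63, 2.35, 1.64 and 0.77, and differed by -0.06 between the ZT16 DEX arrays. With quantile normalization that last difference was 0.13, and in the same pair Yp1 differed by 0.00, which left Yp1 with the direction of the mean in 4 pairs. That method gives each rank the same level on every array, and Yp1 ranked from 1 to 3 in the 8-array table. Lsp2 had the direction of the yolk genes in 3 pairs and the opposite one in 2, at -0.86 between the ZT16 vehicle arrays and -2.01 between the ZT16 DEX arrays. The share of all kept genes with the direction of the yolk mean in only 3 or 4 of the 5 pairs was not counted.

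Genes listed as male-biased in the head were read beside them. Of 6 such genes 4 were on each design. The cytochrome P450 gene Cyp4d21 and the lipase-like gene sxe2, both found at higher levels in male heads, stayed near the dim level, from 2.48 to 2.58 and 2.63 to 3.19 in the 8-array table and from 2.97 to 3.14 and 2.95 to 3.04 on the smaller design. The dosage compensation gene msl-2, whose protein is made in males, read 2.96 to 3.58 and 3.18 to 3.46. From the array with the lower to that with the higher yolk mean, msl-2 and Cyp4d21 were each higher in 4 of the 5 pairs and sxe2 in 3, with differences of at most 0.56, 0.14 and 0.17 in size. The odorant binding protein gene Obp99b, described as male-biased in head fat body, was lower on the array with the higher yolk mean in all 5 pairs. The same held for 4.23% of the 5514 named genes kept in both tables. Its difference was -3.10 and -3.62 in the ZT16 pairs and -0.65 and -0.98 in the 4-array table, but only -0.14 between the ZT4 DEX arrays, near the median absolute difference of 0.14 over kept probe sets. It read 6.41 on vehicle ZT16 replicate 2 and 6.84 on DEX ZT16 replicate 1, against 3.08 to 3.56 on the other 6 arrays of the 8-array table. Vehicle ZT16 replicate 2 had the lowest yolk mean of that table (13.18) and DEX ZT16 replicate 1 the third lowest (13.84). The array with the second lowest yolk mean, DEX ZT4 replicate 1 at 13.51, had an Obp99b level of 3.22. On the 4-array design Obp99b read 5.32 and 4.67 on vehicle replicates 2 and 3 and 4.23 and 5.22 on replicates 1 and 2 labelled DEX, the reverse of the order of the yolk mean over the 4 arrays.

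**Figure D2:**
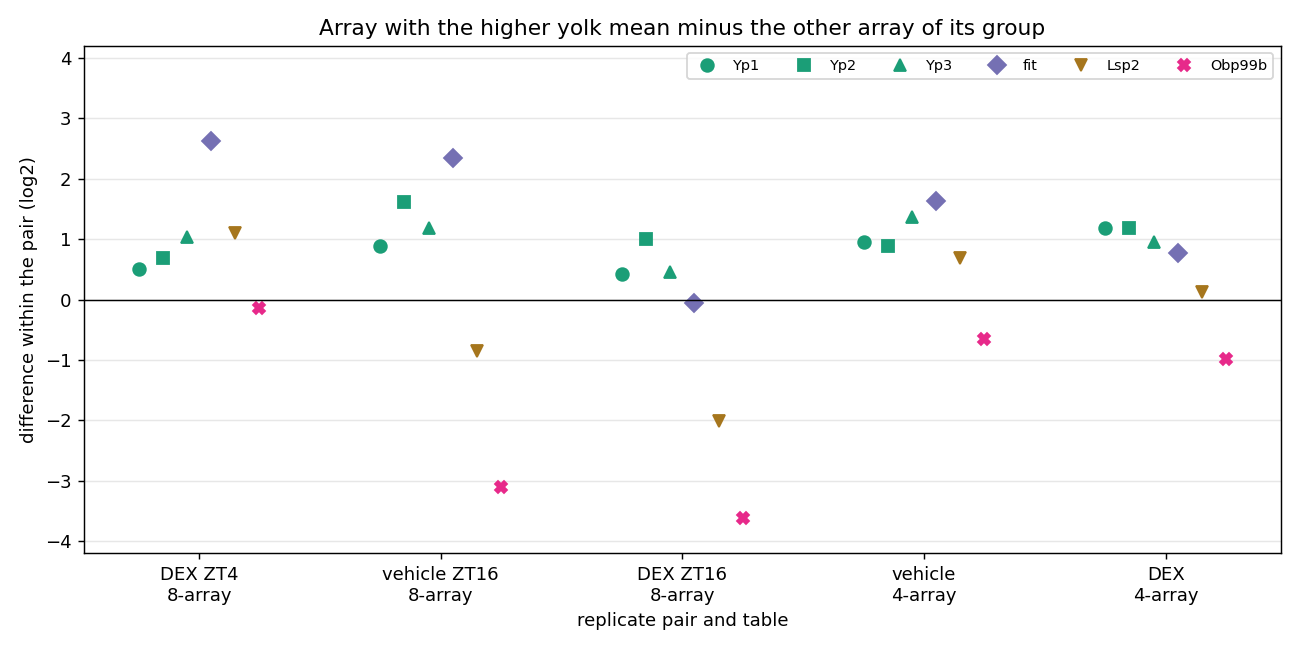
Difference on the log2 scale between the arrays of each replicate pair (columns), taken as the array with the higher mean of Yp1, Yp2 and Yp3 minus the other, with 1 symbol for each gene. The 3 yolk genes lie above 0 in all 5 pairs, fit in 4, Lsp2 in 3, and Obp99b lies below 0 in all 5.

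Among all 5514 named genes kept in both tables, 246 (4.46%) had the direction of the yolk mean in all 5 pairs and 233 (4.23%) the opposite direction in all 5. Ranked by the smallest of the 5 differences, Yp2 (0.68), Yp3 (0.46) and Yp1 (0.43), which set the direction themselves, came first, and apolpp followed. The gene apolpp, which encodes the main lipid carrier of the haemolymph, differed by 0.50, 1.01 and 0.37 in the ZT4 DEX, ZT16 vehicle and ZT16 DEX pairs and by 0.32 and 1.44 in the vehicle and DEX pairs of the 4-array table. First among those opposite to the yolk genes was tobi (target of brain insulin), an alpha-glucosidase gene that responds to insulin and to diet, with differences of -2.99, -3.79 and -1.90 in the same 3 pairs and -1.09 and -1.43 in the 4-array table. Both apolpp and tobi were on the list of fat body genes but were singled out here after their values were seen.

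The levels of tobi were 3.34 on the ZT4 vehicle array, 6.73 and 3.75 with DEX at ZT4, 2.65 and 6.44 with vehicle at ZT16, 6.50 and 4.60 with DEX at ZT16 and 5.67 without a time. The 4 arrays with the highest yolk mean were the 4 with tobi at 4.60 or lower. Because tobi was picked for opposing the yolk genes within replicate pairs of both tables, this order is not separate evidence. On the 4-array design tobi read 6.14 and 5.05 with vehicle and 4.88 and 6.31 with the DEX label. Within each group the array of higher yolk mean was the lower one, which the choice of tobi fixed in advance. The part of sex, feeding or cell make-up in these differences was not tested.

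**Figure D3:**
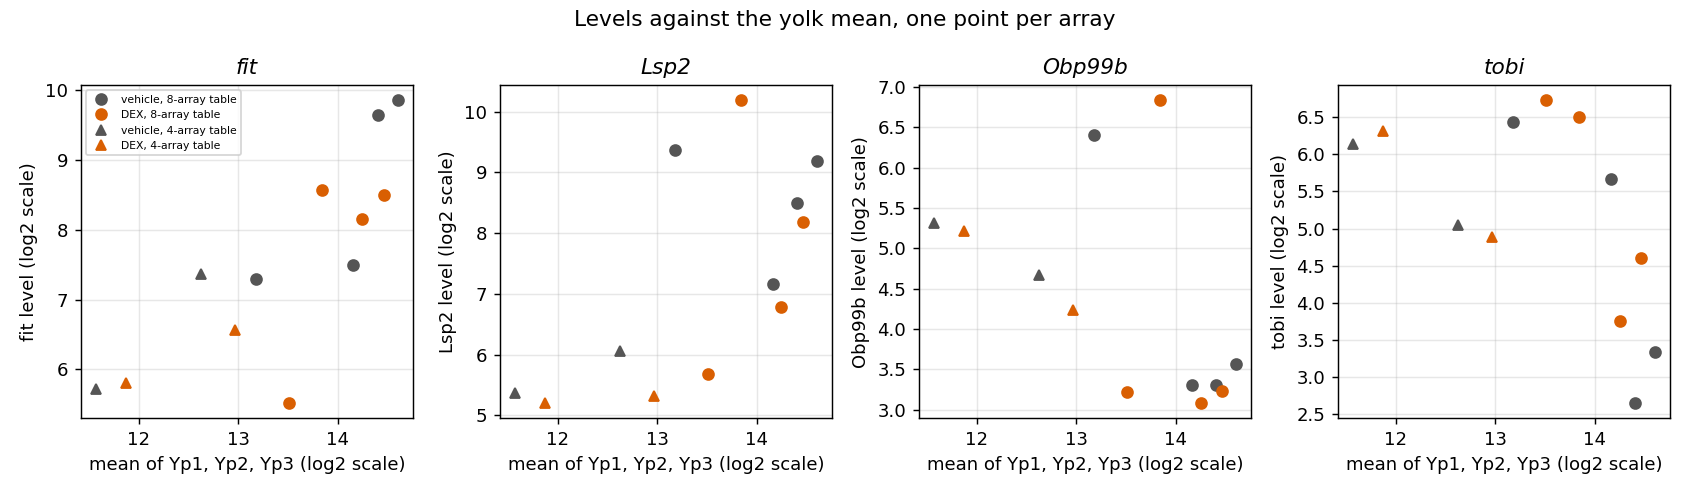
Levels of fit, Lsp2, Obp99b and tobi (vertical, log2 scale) against the mean of Yp1, Yp2 and Yp3 (horizontal, log2 scale), with 1 point for each array, circles for the 8-array and triangles for the 4-array table, vehicle in grey and DEX in orange. The tables use different probe sets, so an offset between circles and triangles is not a difference in expression. The 4 circles with the highest yolk mean have tobi at 4.60 or lower, and the other 4 have it at 5.67 or higher. The gene tobi was picked for opposing the yolk genes within replicate pairs of these arrays.

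Over the 8 arrays of the larger table, 15 gene pairs among the 5 genes and tim were correlated, with exact two-sided permutation p-values adjusted over the pairs. The permutations exchanged all 8 arrays across treatments and times, so differences between groups can enter these correlations and their p-values. The yolk genes had Pearson r of 0.99 (Yp1 and Yp2), 0.97 (Yp1 and Yp3) and 0.93 (Yp2 and Yp3), each with the smallest exact p that 8 arrays can give, 2.48e-05 or 0.000124 adjusted. Spearman rho of 1.00 had an exact p of 4.96e-05, or 0.000248 adjusted. Without DEX ZT4 replicate 1 and vehicle ZT16 replicate 2, the arrays farthest from the median, r was 0.99, 0.97 and 0.94. With quantile normalization the range over arrays was 0.22 for Yp1, 1.53 for Yp2 and 1.37 for Yp3. The r was 0.65, 0.72 and 0.84 in the same order of pairs, and none of the 15 pairs passed. This normalization gives each rank the same level on every array. Yp1 ranked from 1 to 3 on the 8 arrays, which fixed a small range in advance.

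The gene fit followed the yolk genes less closely. Its r was 0.81 with Yp3 (exact permutation p = 0.0118, adjusted 0.0442, n = 8), 0.72 with Yp1 (adjusted permutation p = 0.138) and 0.68 with Yp2 (adjusted permutation p = 0.152). Spearman rho was 0.79 with each, with an exact p of 0.0279 and an adjusted p of 0.0698. Without the same 2 arrays r was 0.60, 0.54 and 0.54. On the 7 timed arrays r with Yp3 was 0.85, with an adjusted permutation p of 0.0521. Lsp2 had r of -0.01, -0.07 and 0.17 with the yolk genes and 0.63 with fit (adjusted permutation p = 0.19 for fit). No correlation with tim passed, with r of -0.17, -0.24 and -0.25 for the yolk genes, -0.52 for fit and -0.46 for Lsp2 and adjusted permutation p-values from 0.353 to 0.787.

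The kept genes whose pattern over the 8 arrays was most like the yolk mean, by Pearson r and among 7967 genes, were CG32813 (0.94), regucalcin (0.94), CG10621 (0.91), GILT2 (0.91) and Elal (0.90). Of these CG10621 had the widest range, from 4.21 to 7.49, and regucalcin, a gene for a calcium-binding protein, ran from 6.19 to 7.98. The gene fit stood at place 92 of this ranking with r of 0.75 and Lsp2 at place 3495 with r of 0.03. Most like fit were nur (0.95), ng2 (0.95), CG8586 (0.94), UK114 (0.93) and nAChRalpha4 (0.93). The levels of nur and ng2 moved only from 3.02 to 3.18 and from 3.24 to 3.49. Most like Lsp2 were the cytochrome P450 gene Cyp28d1 (0.95), CG4467 (0.93), CG6191 (0.93), Men (0.92), which encodes malic enzyme, a source of NADPH for lipid synthesis, and Tomosyn (0.92). The level of Men ran from 6.20 to 7.57. The 8 points share the study's groups, and these values only describe them.

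The first comparison of groups asked whether the genes differed between DEX and vehicle over the 3 vehicle and 4 DEX arrays with a labelled time, in a limma fit with time as a term. No member passed, and 0% of 11261 probe sets did at an adjusted p under 0.05, while 3.39% had an unadjusted p under 0.05, none of them a member (1.63% higher and 1.76% lower with DEX). Yp1 averaged 14.23 ± 0.29 (SD) on the 4 DEX arrays and 14.23 ± 0.56 (SD) on the 3 vehicle arrays, which gave a change on the log2 scale of -0.02 ± 0.27 (SE) with a 95% interval from -0.66 to 0.63. Yp2 and Yp3 had changes of -0.14 ± 0.48 (SE) and -0.08 ± 0.42 (SE), with intervals from -1.26 to 0.99 and from -1.08 to 0.92. The interval of Yp2 therefore left room for a fall or a rise of about 2-fold. In the same fit tim had a change of 3.21 ± 0.40 (SE) and did not pass either, with a limma adjusted p of 0.304. The clock genes per, vri and Pdp1, also known CLK targets, had changes of 2.63 ± 0.35, 1.61 ± 0.30 and 0.30 ± 0.33 (SE), and none passed.

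For fit the means were 7.68 ± 1.45 (SD) on the 4 DEX arrays and 8.93 ± 1.42 (SD) on the 3 vehicle arrays, a change of -1.16 ± 0.94 (SE) with an interval from -3.38 to 1.05. Lsp2 averaged 7.71 ± 1.95 (SD) over the DEX arrays and 9.01 ± 0.46 (SD) over the vehicle arrays, a change of -1.03 ± 0.80 (SE), from -2.91 to 0.85. The limma adjusted p was 0.994 for both. Without the ZT4 vehicle array the changes were 0.07 for fit and 0.26 for Lsp2, and without vehicle ZT16 replicate 2 that of fit was -2.06. Without the 2 arrays of higher Obp99b (vehicle ZT16 replicate 2 and DEX ZT16 replicate 1, left out after seeing the data) they were -2.21 and -1.82, and with array weights -1.87 and -1.94, none passing. Of 23 kept fat body genes 16 had positive and 7 negative changes, with a median of 0.17 against -0.01 over all kept probe sets. Of all kept probe sets 45.7% had positive changes. None passed, and 2 had an unadjusted p under 0.05, the trehalase gene Treh at 0.99 ± 0.34 (SE) and the fatty acid desaturase gene Desat1 at 0.70 ± 0.28 (SE).

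At ZT4 all 5 genes were lower on both DEX arrays than on the single vehicle array, as were 30.8% of all kept probe sets, while 31.6% were higher on both. The changes were -0.46 ± 0.41 (SE) for Yp1, -0.85 ± 0.73 for Yp2, -0.88 ± 0.59 for Yp3, -3.01 ± 1.29 for fit and -2.95 ± 0.92 for Lsp2, in a fit that assumes the lone vehicle array to vary like the other groups. Without DEX ZT4 replicate 1 the values were -0.22, -0.51, -0.37, -1.70 and -2.40, and without replicate 2 they were -0.71, -1.19, -1.39, -4.33 and -3.51. None passed, with limma adjusted p of 0.997 or above. At an unadjusted p under 0.05 were 4% of the 11261 probe sets and 1 of the 5 genes, Lsp2 with 0.0192, which was lower with DEX like 2.86% of all (1.14% were higher), while 0% passed at an adjusted p under 0.05. The comparison rests on that 1 vehicle array, which had the highest levels of Yp1, Yp2, Yp3 and fit of the 8 arrays. Of the 23 kept fat body genes 9 had positive and 14 negative changes at ZT4, with a median of -0.16 against 0.01 over all kept probe sets. Changes were positive for 55.5% of all kept probe sets. From the fat body list Had1, a dehydrogenase gene, had the smallest p at -1.25 ± 0.48 (SE).

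At ZT16 the changes were 0.28 ± 0.33 (SE) for Yp1, 0.34 ± 0.60 for Yp2, 0.46 ± 0.48 for Yp3, 0.07 ± 1.06 for fit and 0.26 ± 0.76 for Lsp2. The vehicle and DEX arrays overlapped for all 5. None passed, with limma adjusted p of 0.976 or above. Neither did any other probe set (0%), and the 2.8% with an unadjusted p under 0.05 held none of the 5 genes (1.42% higher and 1.38% lower). Without vehicle ZT16 replicate 2, the array with the lowest yolk mean, the changes were -0.16, -0.48, -0.14 and -1.10 for Yp1, Yp2, Yp3 and fit. Of the kept fat body genes 18 had positive and 5 negative changes, with a median of 0.43 against -0.03 over all kept probe sets. Changes were positive for 44.3% of all kept probe sets. The acetyl-CoA carboxylase gene ACC, which starts fatty acid synthesis, had 0.95 ± 0.36 (SE).

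The difference of the DEX changes, ZT16 minus ZT4, was tested as an interaction. It was 3.21 ± 1.19 (SE) for Lsp2, with a 95% interval from 0.28 to 6.14, an unadjusted p of 0.0367 and a limma adjusted p of 0.997. For fit it was 3.08 ± 1.67 (SE), from -1.02 to 7.18, and for Yp1, Yp2 and Yp3 it was 0.75 ± 0.52, 1.19 ± 0.94 and 1.34 ± 0.77. No probe set passed (0%), and 2.72% had an unadjusted p under 0.05, of which 1.93% were positive, Lsp2 among them, and 0.79% negative. From the fat body list Had1 had a difference of 2.10 ± 0.62 (SE), ACC 1.43 ± 0.58 and Mtp, which loads lipid onto lipoproteins, 1.24 ± 0.50, and none of these passed.

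The next comparison set night (ZT16, 4 arrays) against day (ZT4, 3 arrays) in the fit with treatment as a term. Lsp2 averaged 9.06 ± 0.91 (SD, n = 4) at ZT16 and 7.21 ± 1.79 (SD, n = 3) at ZT4, a change of 1.67 ± 0.80 (SE) with an interval from -0.21 to 3.56. The yolk genes had changes of -0.13 ± 0.27 for Yp1, -0.27 ± 0.48 for Yp2 and -0.10 ± 0.42 for Yp3, and fit one of 0.46 ± 0.94. None of the 5 passed, each with a limma adjusted p of 0.99 or above. No probe set passed (0%), and 3.57% had an unadjusted p under 0.05 (1.58% higher and 1.99% lower at ZT16), none of them a member. For Lsp2 the ZT16 arrays were above both ZT4 DEX arrays but not all above the ZT4 vehicle array at 9.18, and the change was 0.85 without DEX ZT16 replicate 1 and 2.96 without that vehicle array. The change of Lsp2 was 0.82 without the 2 arrays of higher Obp99b. The change of fit was -0.51 without DEX ZT4 replicate 1. Of 23 kept fat body genes 14 had positive and 9 negative changes, with a median of 0.12 against 0.02 over all kept probe sets. Those with the smallest p were the adipokinetic hormone receptor gene AkhR at 0.61 ± 0.14 (SE) and the lipid droplet gene Lsd-1 at -0.98 ± 0.24 (SE), both without passing (limma adjusted p 0.99). Most markers of photoreceptors, neurons, glia and muscle had positive changes in the same comparison, as did 54.7% of all kept probe sets. Positive were 4 of 5 kept glia genes (median 0.22) and 3 of 4 muscle genes (median 0.07), against 2 of 4 haemocyte genes (median 0.01). All 4 photoreceptor genes had an unadjusted p under 0.05, with a median change of 0.67, and so did 3 of 5 kept neuron genes, with a median of 0.63 over the 5 and 1.07 ± 0.26 (SE) for Gad1, the gene for the enzyme that makes the transmitter GABA. None of these passed (limma adjusted p 0.99), and their part in the values of Lsp2 and the fat body genes was not tested.

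In the 4-array table no member passed between the arrays labelled DEX and vehicle, where 0.0119% of 8379 probe sets did. This was a single one, the brightest of 3 for tim. It read lower on the arrays labelled DEX, by -3.80 ± 0.20 (SE), against the direction of the brightest of 2 for tim in the 8-array table. The levels of the other tim probe sets are not given here. Whether the treatment labels of the 4-array table are the right way round was not tested, and every change given for it would have the opposite sign if they were not. On the 4 arrays per, vri and Pdp1 had changes of -1.90 ± 0.53, -0.21 ± 0.66 and -2.10 ± 0.22 (SE) without passing. The changes were 0.40 ± 0.47 (SE) for Yp1, 0.30 ± 0.46 for Yp2, 0.25 ± 0.51 for Yp3, -0.35 ± 0.58 for fit and -0.44 ± 0.28 for Lsp2, with limma adjusted p from 0.778 to 0.864. At an unadjusted p under 0.05 were 5.42% of the probe sets (3.2% higher and 2.22% lower) and none of the 5 genes. Without the array labelled DEX replicate 2 the changes were 1.00 for Yp1, 0.89 for Yp2 and 0.73 for Yp3. That fit left 1 array in the group labelled DEX. The 2 vehicle arrays alone had an SD of 0.67 for Yp1, 0.62 for Yp2 and 0.96 for Yp3. Without the array labelled DEX replicate 1 the same changes were -0.19, -0.29 and -0.22. Of 25 kept fat body genes 20 had positive and 5 negative changes, with a median of 0.10 against -0.05 over all kept probe sets. Changes were positive for 36.5% of all kept probe sets. From the fat body list ACC had 0.55 ± 0.19 (SE), the smallest p of the list, without passing.

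**Figure D4:**
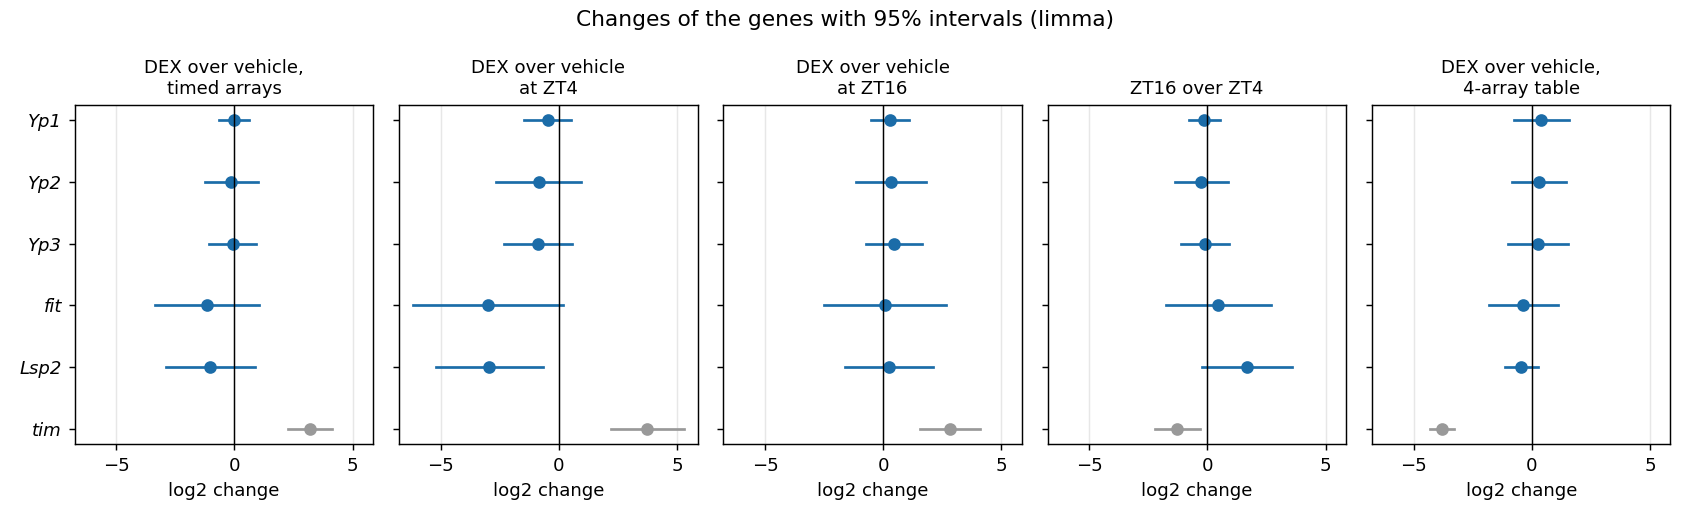
Log2 change (horizontal) of each gene in 5 comparisons (panels), as points with 95% intervals from limma, members in blue and tim in grey for scale. The intervals of Yp1, Yp2, Yp3 and fit include 0 in every panel and that of Lsp2 lies below 0 at ZT4, where no gene passed the adjusted test, while tim lies above 0 in the 3 panels of DEX over vehicle from the 8-array table and below 0 in the 4-array table.

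The sex determination genes were read on the same arrays. Of 7 genes on each design 5 and 6 passed the filter, and none passed in any comparison. The switch gene Sxl, spliced into its active form in females, read 4.11 to 4.75 in the 8-array table and 3.14 to 3.28 on the smaller design, and doublesex (dsx) read 3.20 to 3.83 and 3.03 to 3.20. These probe sets give a total level of each gene and do not separate the female and male transcripts. The DEX change of dsx was 0.12 ± 0.16 (SE) on the timed arrays and -0.11 ± 0.07 (SE) on the 4-array design.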

How the data were processed

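Per the labels' protocols, total RNA of fly heads was extracted with Trizol and labelled with biotin for Affymetrix arrays. The authors deposited intensity values of up to 5374153 and 3300359 in 2 tables, for which the submitters' processing notes name GCRMA without version or settings. The log base behind these values is not stated. Natural logs were taken and read as log2 levels. Control probe sets (183 and 44) were left out, and probe sets with a mean above the 40th percentile were kept, 11261 and 8379. Genes were named by the platforms' annotation and current RefSeq symbols (13543 and 12393 probe sets matched), and the brightest probe set stood for a gene with more than 1.

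Fits used lmFit and eBayes with trend (limma 3.58.1, R 4.3.3), with Benjamini-Hochberg adjustment over all kept probe sets and a threshold of 0.05, and were tested on simulated data. Same-numbered arrays deviated together with correlations of -0.24, -0.01 and 0.07, so the numbers do not pair them. The number of arrays limits the precision. Alternatives were filters, normalizations, array weights, a replicate block, covariates and each array left out. The members and lists were chosen with earlier results of these data known. Named are all members, list genes with the smallest p (at most 3 for each comparison) and the 5 most alike genes, besides those said to be chosen later.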

Additional observations from a re-analysis of the deposited data

Results flagged for a closer look

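The gene fit was picked out because its arrays followed opposite directions with time in the 2 treatments. The share of all kept probe sets with this pattern was not counted, and it rests on a single ZT4 vehicle array. With vehicle, both ZT16 arrays (9.64 and 7.29) lay below the single ZT4 array (9.85), and with DEX both ZT16 arrays (8.56 and 8.50) lay above both ZT4 arrays (5.52 and 8.15). The test of this difference gave 3.08 ± 1.67 (SE) on the log2 scale and did not pass, with an unadjusted p of 0.115 and a limma adjusted p of 0.997. Without DEX ZT4 replicate 1 it was 1.77 and without DEX ZT4 replicate 2 it was 4.40. The trait is not particular to fit. The group means of Yp1, Yp2, Yp3 and Lsp2 were also lower at ZT16 with vehicle and higher with DEX, and the difference was larger for Lsp2 (3.21 ± 1.19, SE), whose arrays overlapped with vehicle.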

How the results depend on the processing

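Of 414 values of the 5 genes under alternatives, 366 kept their direction and their side of the threshold and 45 changed sign. The rest kept their direction but not their side of the threshold. They were the yolk genes of the 4-array table without the array labelled DEX replicate 2. That fit left 1 array in its group. The filters and a fit without trend cannot alter a change, and leaving out a ZT16 array cannot alter DEX at ZT4. The 366 thus include values whose direction was fixed in advance. In the DEX comparison of the timed arrays, Yp1 was 0.01 with median centring, 0.09 with quantile normalization, 0.00 with the replicate block and 0.00 without a term for time, and Yp2 was 0.09 with quantile normalization. With quantile normalization Yp1 was also 0.02 for ZT16 against ZT4 and 0.05 for DEX at ZT4. Without the 2 arrays of higher Obp99b, an alternative chosen after seeing the data, ZT16 against ZT4 gave 0.17, 0.34 and 0.25 for Yp1, Yp2 and Yp3 and 0.82 for Lsp2, and the DEX changes of fit and Lsp2 were -2.21 and -1.82. With array weights these were -1.87 and -1.94.

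With each array left out in turn, the DEX changes on the timed arrays ran from -0.31 to 0.28 (Yp1), -0.66 to 0.34 (Yp2), -0.51 to 0.46 (Yp3), -2.06 to 0.07 (fit) and -1.85 to 0.26 (Lsp2). For DEX at ZT4 they ran from -0.71 to -0.22, -1.19 to -0.51, -1.39 to -0.37, -4.33 to -1.70 and -3.51 to -2.40 in the same order of genes. For time they ran from -0.33 to 0.17, -0.64 to 0.21, -0.49 to 0.44 and -0.51 to 1.69 for Yp1, Yp2, Yp3 and fit. For DEX at ZT16 they ran from -0.16 to 0.73, -0.48 to 1.15, -0.14 to 1.05, -1.10 to 1.24 and -0.75 to 1.26 for Yp1, Yp2, Yp3, fit and Lsp2. With 4 arrays they ran from -0.19 to 1.00, -0.29 to 0.89, -0.43 to 0.93 and -1.17 to 0.47 for Yp1, Yp2, Yp3 and fit. The number of probe sets passing ran from 0 to 18 on the timed arrays (18 without DEX ZT16 replicate 2) and from 0 to 314 with 4 arrays (192 and 314 without the arrays labelled DEX replicates 1 and 2).

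Without the filter 23 probe sets passed in the 4-array table, and 0 with median centring, quantile normalization or array weights. At ZT4 1 probe set passed with array weights. With quantile normalization the range of Yp1 in the 8-array table was 0.22 and 0 of 15 correlations passed. Quantile normalization gives each rank the same level on every array. Yp1 ranked from 1 to 3 on the 8 arrays, so its small range follows from the method. The correlations that changed sign were Yp1 with Lsp2 (0.01 on the 7 timed arrays) and, with quantile normalization, Yp1 with tim (0.23), Yp2 with tim (0.07) and Yp3 with Lsp2 (-0.10). The replicate block changed no call. No paired analysis was run for the 4-array table, where the label of 1 vehicle array gives no replicate number. DEX at ZT4 and the interaction have no value without the single ZT4 vehicle array. Apart from that effect of quantile normalization on Yp1, the cause of these changes was not tested.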
